A study of Mus musculus with 47 samples.

Results

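The comparison described here asks, for every gene, whether the response of male gonadal fat to a diet with 44% fat differed between NZO/HlLtJ and C57BL/6J mice. Its value is an interaction: the difference between 44% and 10% fat in NZO/HlLtJ males minus the same difference in C57BL/6J males, in log2 units of CPM, counts scaled to a common library size. A negative value means that the response was lower in NZO/HlLtJ, and a positive value that it was higher. It rests on 16 of the 47 libraries of the series, those whose titles end in M, with 4 libraries in each of 4 groups, and it was computed for 18769 of the 22376 genes in the file. The series is about interactions of genotype and diet, and it also holds females and the strain CAST/EiJ. C57BL/6J is the reference inbred strain of mouse genetics. NZO/HlLtJ mice, the New Zealand Obese strain, become obese through variants of many genes, and their males readily turn diabetic. Both are plain inbred strains, and the labels name no transgene or deleted gene in them. The labels name the diets 10% fat+fiber and 44% fat+fiber and their protocol calls the 2 diets control and high fat with high sugar. Mice ate them from 6 weeks of age, and the gonadal fat pad was taken at 15 weeks. Replicates are numbered within a group and only name a library. Nothing in the labels ties a library to an animal of its own, so p-values measure the spread between libraries.

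White fat stores triglyceride in adipocytes, and when energy intake exceeds expenditure the pad grows by enlarging these cells and by forming others from progenitors. Growth is accompanied by remodelling of the collagen matrix around the cells, by secretion of leptin and other adipokines, and by recruitment of monocytes, which the chemokines of the CCL2 family attract and which become macrophages around stressed adipocytes. Fat also inactivates and reactivates glucocorticoids, burns ketone bodies and fatty acids, and makes fatty acids from sugar, a pathway that dietary fat is known to lower.

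Library totals of the 16 libraries lay between 31.8 and 48.1 M counts, and mitochondrially encoded genes took 3.76% to 7.52% of them. Adipocyte genes were abundant in all 16, with the summed level of the 22 genes of the adipocyte identity list between 38602 and 73214 CPM. Single libraries stood apart. Replicate 3 of C57BL/6J on 10% fat held epithelial genes at a summed 73.6 CPM, against 11.0 to 20.8 in the other C57BL/6J libraries, and genes of epididymis, testis and seminal tract at 42.8 CPM against at most 3.96 in any other of the 16. Replicate 3 of NZO/HlLtJ on 44% fat held epithelial genes at 68.1 CPM against at most 5.47 in the other NZO/HlLtJ libraries, B and plasma cell genes at 1676 CPM against at most 861.6, and neutrophil and mast cell genes at 260.7 CPM against at most 62.4. In a principal component analysis of the 16 libraries, component 1 held 51.3% of the variance and separated the strains. Component 2, with 8.07%, ran along diet in C57BL/6J, from 9.91 to 32.8 on 10% fat to -26.5, -42.7, 3.83 and -43.1 on 44% fat, so that replicate 3 on 44% fat lay next to the 10% libraries. On that component NZO/HlLtJ replicates 1 and 4 on 44% fat lay at 46.3 and 24.8, and replicates 2 and 3 at -4.38 and -11.2, near the 10% group at -12.7 to -0.687. The identifiers in the sample titles fall into 3 number ranges, 77, 81 and 88, whose meaning is not given. Each C57BL/6J male group has 1 library in range 77, 1 in 81 and 2 in 88. In NZO/HlLtJ males replicates 1 and 2 of both groups are in range 77, and replicates 3 and 4 are in range 88 on 10% fat and in range 81 on 44% fat, so replicates 1 and 4 on 44% fat come from different ranges.

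The interaction passed a Benjamini-Hochberg adjusted p of 0.05, by edgeR's quasi-likelihood test, for 401 of 18769 genes (2.14%). Genes past this threshold are referred to as called. Of these, 188 (1%) were higher and 213 (1.13%) lower in NZO/HlLtJ, 192 differed at least 2-fold, and 3792 genes had an unadjusted p below 0.05. The number depends on how the spread between libraries is estimated and on single libraries. All 47 libraries shared 1 estimate of the spread per gene here. The groups were not equally spread. The coefficient of variation between libraries was 0.242 in NZO/HlLtJ males on 44% fat and 0.159 on 10% fat. In C57BL/6J males it was 0.166 on 44% and 0.228 on 10% fat, against 0.192 in the shared fit. For a group above the shared value, p-values can come out too small. With the 16 libraries alone 3 genes were called, with the 23 males of 3 strains 19, and with DESeq2 924. With the number range as a term 383 were called, 336 of them among the 401, and within range 77, which leaves 1 to 2 libraries a group, 3. Leaving out 1 library gave between 60 calls, without replicate 1 of NZO/HlLtJ on 44% fat, and 1448, without its replicate 3. Every one of the 401 genes kept its sign in each of these fits that tested it, and 50 were called in all 16 of the fits that left out 1 library. Genes among those 50 are pointed out below.

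Within a strain, diet changed 711 genes in C57BL/6J males (3.79%), 394 up (2.1%) and 317 down (1.69%), and 218 in NZO/HlLtJ males (1.16%), 147 up (0.783%) and 71 down (0.378%). Leaving out 1 library gave between 104 calls in C57BL/6J, without replicate 4 on 44% fat, and 1529, without replicate 3 on 44% fat, and between 15 in NZO/HlLtJ, without replicate 4 on 44% fat, and 859, without replicate 3 on 44% fat. Without the 2 libraries with epithelial markers the order of the strains turned, with 399 calls in C57BL/6J and 872 in NZO/HlLtJ. Of the diet calls of the genes chosen to be named, 22 of 50 in C57BL/6J and 0 of 18 in NZO/HlLtJ held in all 8 fits that left out 1 library of that strain. These diet effects share their libraries with the interaction, so they describe it and do not test it again. Among the 213 genes called lower, 128 had risen in C57BL/6J alone, 17 had fallen in NZO/HlLtJ alone, 5 had done both, and 63 were called in neither strain. Among the 188 called higher, 68 had fallen in C57BL/6J alone, 47 had risen in NZO/HlLtJ alone, and 73 were called in neither. The median diet effect of the genes called lower was 0.74 in C57BL/6J and -0.32 in NZO/HlLtJ, and that of the genes called higher was -0.34 and 0.38, against medians of -0.02 and -0.01 over all genes tested. The diet effect was called in both strains for 7 genes. They were 0.985% of the C57BL/6J calls and 3.21% of the NZO/HlLtJ calls, close to the 1.16% and 3.79% of all genes tested that were called in NZO/HlLtJ and in C57BL/6J.

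The starting levels also differed. On 10% fat 8353 genes (44.5%) differed between the strains, 47.4% of them higher in NZO/HlLtJ, and on 44% fat 6201 (33%), 49.3% of them higher. Scaled by library totals, 63.6% and 70.2% were higher, with the median over all genes at 0.101 and 0.147. The genes called lower were a median of 0.82 higher in NZO/HlLtJ than in C57BL/6J on 10% fat and -0.15 on 44% fat, and the genes called higher went from a median of -0.56 to 0.15. The strain differences use the same libraries as the interaction, so the signs are tied to it.

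**Figure D1:**
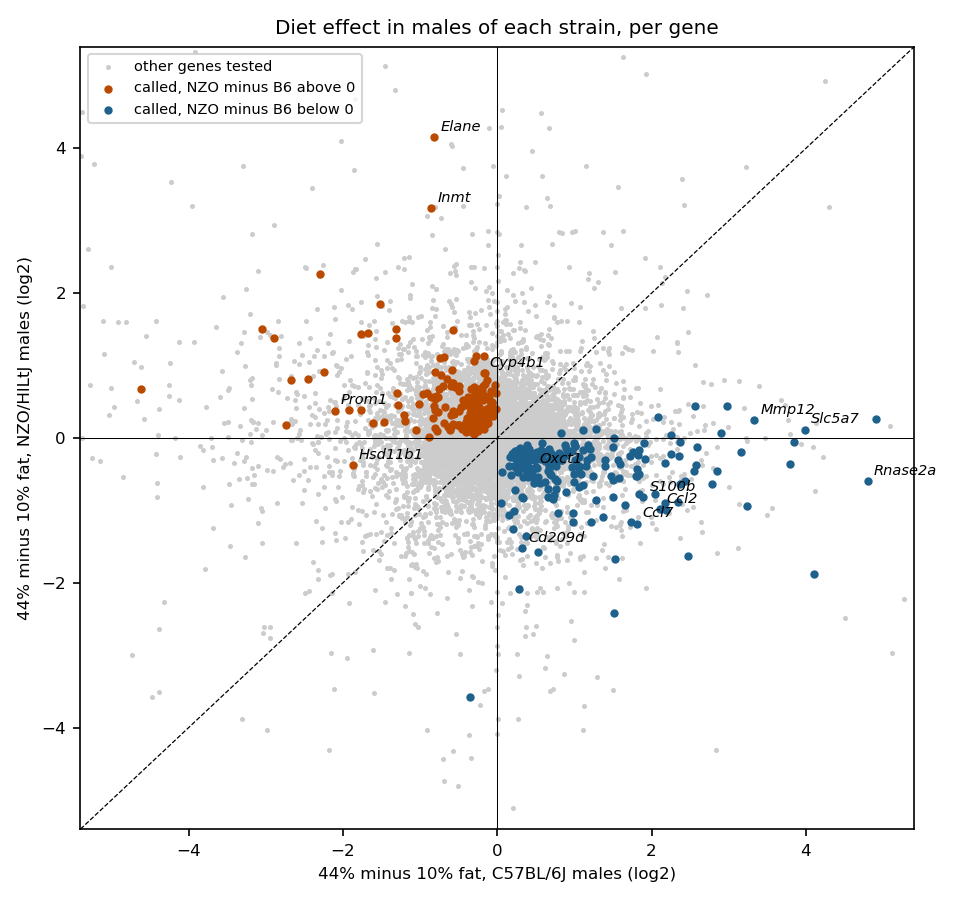
Each point is 1 gene tested, with the log2 difference between 44% and 10% fat in C57BL/6J (B6) males on the x axis and in NZO/HlLtJ (NZO) males on the y axis. Points on the dashed line respond equally, the 213 genes called lower lie to its lower right and the 188 called higher to its upper left, and 28 genes beyond 5.4 on either axis, 3 of them called, are not drawn.

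Genes for 3 chemokines were called lower, and stayed called whichever library was left out. Ccl2, Ccl7 and Ccl8 lie in a chemokine cluster on chromosome 11, and the ligands encoded by Ccl2 and Ccl7 attract monocytes, mainly through the receptor CCR2. All 3 rose on 44% fat in C57BL/6J males and lay lower on 44% than on 10% fat, without a call, in NZO/HlLtJ. Ccl2 (ENSMUSG00000035385, chromosome 11, 82035571 to 82037453, GRCm38) was in C57BL/6J at 3.94, 2.41, 3.04 and 2.51 CPM on 10% fat and at 12.3, 14.1, 5.04 and 20.2 CPM on 44% fat. Levels in NZO/HlLtJ were 34.7, 18.5, 25.5 and 42.9 CPM on 10% fat and 3.32, 24.6, 27.8 and 5.76 CPM on 44% fat. There was no overlap between the C57BL/6J groups, whereas in NZO/HlLtJ replicates 2 and 3 on 44% fat lay inside the 10% range and replicates 1 and 4 far below it. Ccl2 rose 4.33-fold in C57BL/6J (adjusted p = 0.00315), its difference in NZO/HlLtJ was log2 -0.98 (adjusted p = 0.196), and the interaction was log2 -3.10, SE 0.57, adjusted p = 0.00573.

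Ccl7 (ENSMUSG00000035373, chromosome 11, 82045712 to 82047525, GRCm38) had the same shape. It was at 2.80, 1.88, 1.39 and 1.57 CPM on 10% fat and at 6.69, 8.01, 2.63 and 9.54 CPM on 44% fat in C57BL/6J. The NZO/HlLtJ libraries had 19.6, 11.2, 17.3 and 21.8 CPM on 10% fat and 1.70, 14.1, 11.9 and 2.99 CPM on 44% fat. Again replicate 3 of C57BL/6J on 44% fat was the lowest of its group, inside the 10% range, and replicates 1 and 4 of NZO/HlLtJ were the low ones. This gave an interaction of log2 -2.99, SE 0.61, adjusted p = 0.00872. Ccl8 (ENSMUSG00000009185, chromosome 11, 82115185 to 82116799, GRCm38) was at 1.42, 1.14, 1.52 and 1.57 CPM on 10% fat and at 2.78, 9.18, 3.80 and 7.49 CPM on 44% fat in C57BL/6J. For NZO/HlLtJ the values were 10.1, 12.9, 11.5 and 16.1 CPM on 10% fat and 4.62, 9.81, 11.5 and 3.77 CPM on 44% fat. Its C57BL/6J groups did not overlap, and on 10% fat every NZO/HlLtJ library was above every C57BL/6J library. The interaction came to log2 -2.81, SE 0.52, adjusted p = 0.00573, and all 3 genes were called in each of the 16 fits that left out 1 library.

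The other cluster genes, chosen after their values were seen, were not called. Ccl12 (ENSMUSG00000035352, chromosome 11, 82101845 to 82103400, GRCm38), which encodes another monocyte chemokine, was on 10% fat at 0.373 to 0.880 CPM in C57BL/6J and at 2.31 to 2.82 CPM in NZO/HlLtJ, with an interaction of log2 -1.24 (adjusted p = 0.178). Ccl11 (ENSMUSG00000020676, chromosome 11, 82057823 to 82062955, GRCm38), the eosinophil chemokine eotaxin, lay between 24.9 and 49.1 CPM in all 16 libraries (log2 -0.11, adjusted p = 0.788). Its groups overlapped in C57BL/6J and not in NZO/HlLtJ, where it was slightly higher on 44% fat. Whether these genes differ from Ccl2, Ccl7 and Ccl8 in their interaction was not tested.

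The promoters of Ccl8 and Ccl12 are shown because both lie in this cluster and Ccl8 alone of the pair was called, and that of Inmt for contrast, as a gene called higher. They come from RefSeq on GRCm38.p6, 250 bases before to 50 after the gene start in RefSeq, with matches to the letters TATAAA in capitals. For Inmt that start differs from the one in the gene position given further below.
Ccl8 (chr11:82114935-82115234, plus strand): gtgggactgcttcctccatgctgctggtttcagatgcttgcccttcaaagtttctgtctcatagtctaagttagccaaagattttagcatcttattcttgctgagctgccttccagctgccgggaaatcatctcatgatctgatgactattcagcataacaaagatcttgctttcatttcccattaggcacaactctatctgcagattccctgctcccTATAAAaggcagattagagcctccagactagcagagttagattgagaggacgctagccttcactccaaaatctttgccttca
Ccl12 (chr11:82101595-82101894, plus strand): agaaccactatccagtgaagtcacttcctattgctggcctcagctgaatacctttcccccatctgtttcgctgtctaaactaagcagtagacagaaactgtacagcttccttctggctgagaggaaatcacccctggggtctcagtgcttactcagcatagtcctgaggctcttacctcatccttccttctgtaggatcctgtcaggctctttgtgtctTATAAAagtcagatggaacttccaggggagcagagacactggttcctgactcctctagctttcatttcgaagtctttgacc
Inmt (chr6:55174941-55175240, minus strand): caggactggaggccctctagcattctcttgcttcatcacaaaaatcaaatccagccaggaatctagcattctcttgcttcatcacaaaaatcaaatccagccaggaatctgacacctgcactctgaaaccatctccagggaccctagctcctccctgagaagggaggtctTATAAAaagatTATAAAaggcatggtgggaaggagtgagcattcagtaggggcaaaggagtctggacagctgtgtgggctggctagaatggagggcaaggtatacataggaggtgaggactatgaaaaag
Promoters of Ccl2, Ccl7, Ccl11 and Ccl1, a further gene of the cluster, are not shown. The letters TATAAA, searched on both strands, occurred once in Ccl8 and Ccl12, starting at positions -32 and -31 from the gene start, and 2 times in Inmt, against 13.6% of 32851 promoter windows. No match to the AP-1 letters TGANTCA (7.81% of windows), CCAAT (37.4%) or the E-box CACGTG (7.15%) was in any of the 3 windows, on either strand.

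**Figure D2:**
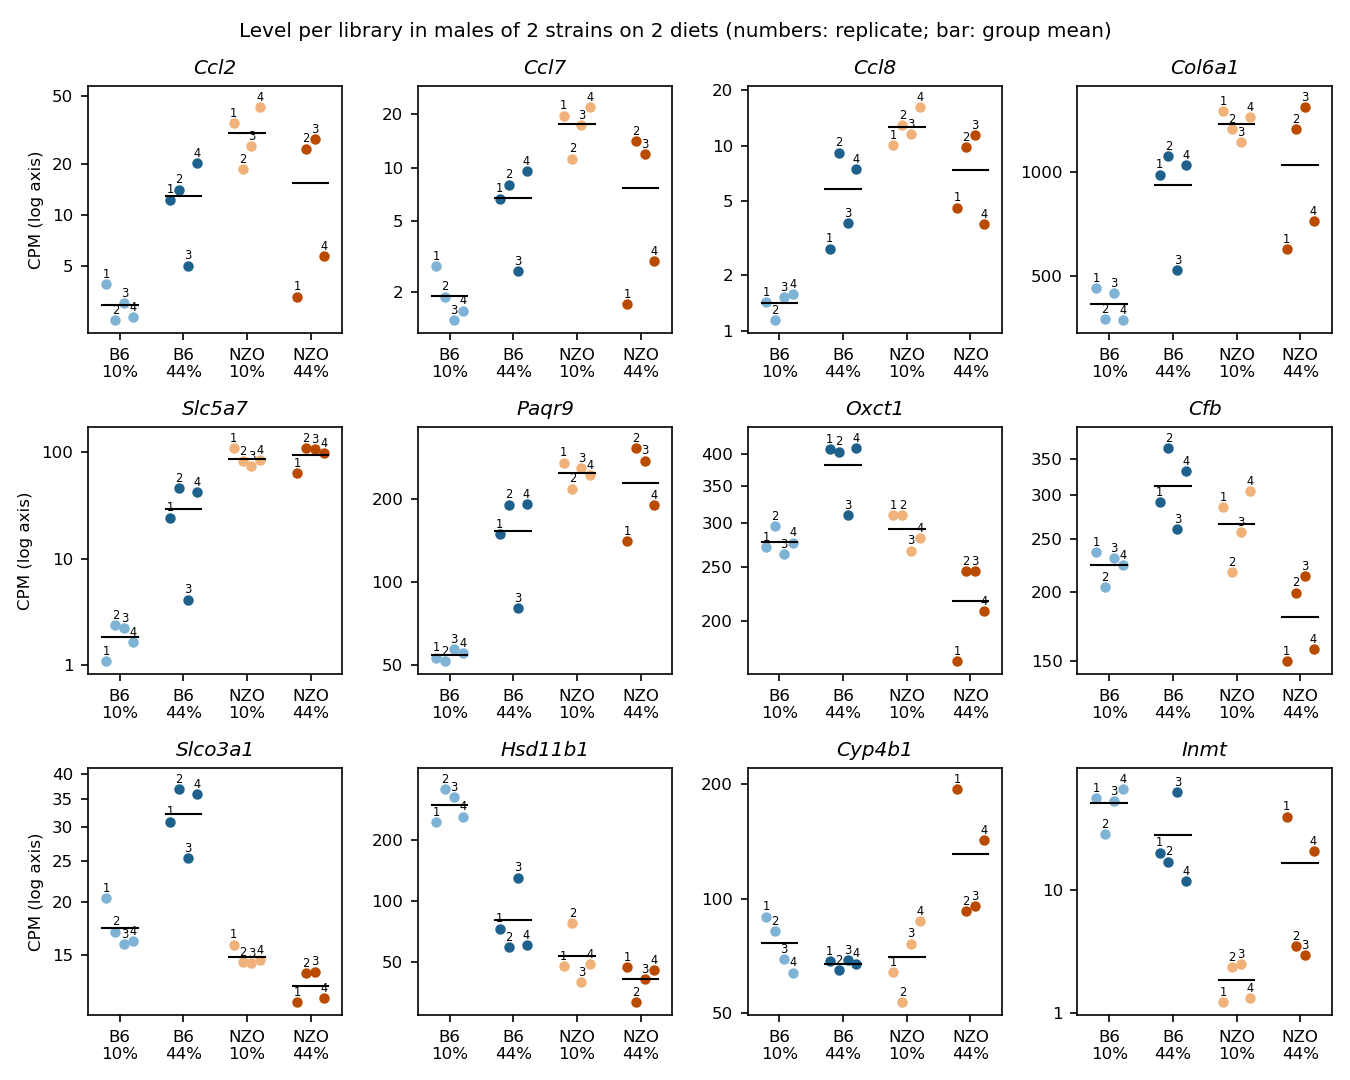
Points are the CPM of each library on a log axis for 12 genes, with the replicate number above each point and the group mean as a bar, in males of C57BL/6J (B6) and NZO/HlLtJ (NZO) on 10% and 44% fat. For Ccl2, Ccl7, Ccl8 and Col6a1 the C57BL/6J points move up with 44% fat while NZO/HlLtJ replicates 1 and 4 drop below the 10% points, and replicate 3 of C57BL/6J on 44% fat is the lowest of its group for Ccl2, Ccl7, Col6a1, Slc5a7, Paqr9, Oxct1, Cfb and Slco3a1.

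Among other inflammatory genes, Il1rn was called for diet and for the interaction with the same signs as the chemokines. Of 23 inflammatory mediators tested, 4 were called lower and none higher, with a median interaction of -0.88 against 0.00296 over all genes. Of all genes 2.14% were called, 1.13% lower. The 4 were Ccl2, Ccl7, Ccl8 and Il1rn, and the same 4 had risen in C57BL/6J, against 2.1% of all genes tested. With 1 C57BL/6J library left out, 3 to 7 mediators were called there, 7 of them without replicate 3 on 44% fat. Il1rn (ENSMUSG00000026981, chromosome 2, 24336853 to 24351494, GRCm38), the natural antagonist of the interleukin-1 receptor, was at 1.77, 0.627, 1.07 and 0.941 CPM on 10% fat and at 2.34, 8.41, 2.10 and 8.25 CPM on 44% fat in C57BL/6J. Among NZO/HlLtJ males it stood at 32.7, 18.5, 28.5 and 34.4 CPM on 10% fat and at 8.42, 33.0, 39.4 and 16.9 CPM on 44% fat, the 2 low values again being replicates 1 and 4. The value of the interaction was log2 -2.47, SE 0.55, adjusted p = 0.0163. Ptx3 (ENSMUSG00000027832, chromosome 3, 66219910 to 66225805, GRCm38), a secreted pattern recognition protein of the pentraxin family, was at 1.07 to 2.09 CPM on 10% fat and 2.06 to 9.84 CPM on 44% fat in C57BL/6J, and at 6.41 to 31.1 and 2.83 to 15.3 CPM in NZO/HlLtJ, with overlapping groups in both strains, and was called (log2 -2.90, SE 0.64, adjusted p = 0.0148). The count of the list was 3 to 6 over the fits that left out 1 library, and none of the 23 was called with the 16 libraries alone.

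None of 15 macrophage genes tested was called in either direction (median -0.43), and 1 of 16 genes of lipid-associated macrophages was called lower (median -0.65), while 6 of those 16 were called for a rise in C57BL/6J and none in NZO/HlLtJ. Over all genes tested these shares were 1.13% lower for the interaction and 2.1% risen in C57BL/6J. That count of 6 was 1 without replicate 2 or 4 of C57BL/6J on 44% fat, 3 without replicate 3 on 10% fat, and 4 to 6 in the other fits that left out 1 C57BL/6J library. The called gene was Mmp12 (ENSMUSG00000049723, chromosome 9, 7344381 to 7369499, GRCm38), the macrophage metalloelastase, which was at 7.90, 1.35, 1.79 and 2.93 CPM on 10% fat and at 14.7, 66.5, 5.69 and 54.4 CPM on 44% fat in C57BL/6J. In NZO/HlLtJ it was at 179, 88.1, 189 and 139.8 CPM on 10% fat and at 76.6, 284, 137 and 210.2 CPM on 44% fat. Every NZO/HlLtJ library was above all 8 C57BL/6J libraries, on either diet, and the NZO/HlLtJ groups overlapped. The interaction was log2 -3.08, SE 0.79, adjusted p = 0.0319, lost in 9 of the 16 fits that left out 1 library. Itgax, which encodes the CD11c integrin of inflammatory fat macrophages, rose in C57BL/6J (log2 1.56, adjusted p = 0.00788) with an interaction of -1.11 (adjusted p = 0.169), and Trem2, a lipid receptor of these cells, had an interaction of -0.93 (adjusted p = 0.359). In bulk tissue fewer cells of a type and less RNA per cell cannot be told apart.

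Genes of the extracellular matrix, the longest list, gave the most calls of any list. Of 30 tested, 8 were called lower and none higher, with a median of -0.70, and 15 of the 30 had risen in C57BL/6J and none was called for diet in NZO/HlLtJ. Of all genes tested, 1.13% were called lower for the interaction and 2.1% higher for diet in C57BL/6J. The 15 became 3 without replicate 4 and 4 without replicate 2 of C57BL/6J on 44% fat, 8 without replicate 3 or 4 and 9 without replicate 2 of C57BL/6J on 10% fat, and 12 to 17 in the other fits that left out 1 C57BL/6J library. The 8 were the fibrillar collagen V chains Col5a1 (-1.06) and Col5a2 (-0.98), the microfibrillar collagen VI chains Col6a1 (-1.54) and Col6a2 (-1.47), Col12a1 (-1.97), the collagen-binding protein gene Sparc (-0.94), the metalloproteinase inhibitor gene Timp1 (-2.07) and the fibrillin gene Fbn1 (-1.47), all on the log2 scale. The summed level of the 30 genes was 17524, 15108, 15269 and 14533 CPM in C57BL/6J on 10% fat and 22493, 27011, 17877 and 25938 on 44% fat. It was 29272, 25221, 25113 and 28013 CPM in NZO/HlLtJ on 10% fat and 16006, 27660.0, 29484 and 18118 on 44% fat. The C57BL/6J groups did not overlap, while NZO/HlLtJ replicates 1 and 4 on 44% fat lay below and replicate 3 above the 10% group.

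Col6a1 (ENSMUSG00000001119, chromosome 10, 76708792 to 76726168, GRCm38), which encodes a chain of the collagen that surrounds adipocytes, was at 462, 375, 446 and 373 CPM on 10% fat and at 983, 1111, 521 and 1046 CPM on 44% fat in C57BL/6J. Levels in NZO/HlLtJ were 1499, 1333, 1218 and 1442 CPM on 10% fat and 599, 1329, 1539 and 719.5 CPM on 44% fat. There was no overlap between the C57BL/6J groups, and replicates 1 and 4 of NZO/HlLtJ on 44% fat were the only NZO/HlLtJ libraries below the 10% group. This gave an interaction of log2 -1.54, SE 0.33, adjusted p = 0.0134. Col12a1 (ENSMUSG00000032332, chromosome 9, 79598991 to 79718831, GRCm38), a fibril-associated collagen, was at 10.8, 12.8, 13.0 and 7.79 CPM on 10% fat and at 36.9, 55.1, 17.1 and 56.9 CPM on 44% fat in C57BL/6J. The NZO/HlLtJ libraries had 90.3, 56.1, 59.5 and 80.4 CPM on 10% fat and 43.9, 84.4, 94.0 and 49.8 CPM on 44% fat. Overlap between groups was seen in NZO/HlLtJ and not in C57BL/6J. Its interaction was log2 -1.97, SE 0.46, adjusted p = 0.0204. Col6a3, the third chain of collagen VI, rose in C57BL/6J (adjusted p = 0.0352) and its interaction of -1.14 was not called (adjusted p = 0.0796). The number of matrix genes called lower was 0 without replicate 1 of NZO/HlLtJ on 44% fat, 1 without its replicate 4, 1 without replicate 2 or replicate 4 of C57BL/6J on 44% fat, 4 without replicate 2 of C57BL/6J or replicate 4 of NZO/HlLtJ on 10% fat, 5 without replicate 4 of C57BL/6J or replicate 1 of NZO/HlLtJ on 10% fat, 14 and 16 without replicates 2 and 3 of NZO/HlLtJ on 44% fat, and 15 without replicate 3 of C57BL/6J on 44% fat. The median stayed between -0.85 and -0.58 in these fits.

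Markers of fat pad growth rose in C57BL/6J and were mostly not called for the interaction. Of 15 genes of the adipose expansion list, 6 rose in C57BL/6J, 1 (Peg3) rose in NZO/HlLtJ, and 2, Tph2 and Mmp12, were called lower (median -0.77). The shares of all genes tested were 2.1%, 0.783% and 1.13%. The 6 became 3 without replicate 3 or 4 on 10% fat or replicate 2 or 4 on 44% fat of C57BL/6J, and 4 to 8 in the other fits that left out 1 C57BL/6J library. In NZO/HlLtJ no member was called in 4 of the 8 such fits. For the interaction, leaving out 1 library gave 0 to 5 calls in this list, none without replicate 2 or 4 of C57BL/6J on 44% fat, replicate 4 of C57BL/6J or NZO/HlLtJ on 10% fat, or replicate 4 of NZO/HlLtJ on 44% fat, and 5 without replicate 3 of C57BL/6J on 44% fat. Mest, an imprinted gene linked to adipocyte enlargement, was at 159.9, 158, 125 and 89.7 CPM on 10% fat and at 808, 741, 163 and 806 CPM on 44% fat in C57BL/6J. For NZO/HlLtJ the values were 391, 263, 277 and 351 CPM on 10% fat and 212, 367, 344 and 299.6 CPM on 44% fat. Replicate 3 of C57BL/6J on 44% fat lay only just above its 10% group. The interaction of Mest was log2 -2.31 (adjusted p = 0.0983), and that of Sfrp5, a secreted Wnt inhibitor, -2.34 (adjusted p = 0.0797). Lep, the gene of the satiety hormone leptin, was at 492, 399.9, 737 and 936 CPM on 10% fat and at 1828, 2805, 814 and 2359 CPM on 44% fat in C57BL/6J. Among NZO/HlLtJ males it stood at 2975, 2629, 2032 and 3009 CPM on 10% fat and at 1510.0, 3014, 3684 and 2788 CPM on 44% fat. On 10% fat all 4 NZO/HlLtJ libraries lay above those of C57BL/6J, and replicate 1 on 44% fat was the lowest NZO/HlLtJ library. The value of the interaction was log2 -1.56 (adjusted p = 0.192). Tph2 (ENSMUSG00000006764, chromosome 10, 115078641 to 115185022, GRCm38), which encodes a tryptophan hydroxylase of serotonin synthesis, was at 0.350, 0.882, 0.267 and 0.235 CPM on 10% fat and at 2.29, 7.79, 0.483 and 6.5 CPM on 44% fat in C57BL/6J. In NZO/HlLtJ it was at 125, 80.7, 63.3 and 145 CPM on 10% fat and at 3.37, 86.4, 113 and 14.0 CPM on 44% fat, with replicates 1 and 4 on 44% fat far below the other NZO/HlLtJ libraries. The interaction came to log2 -4.18, SE 1.01, adjusted p = 0.0257.

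Cell cycle genes had the lowest median of the larger lists, -1.30 over 21 genes, with 8 risen in C57BL/6J, none in NZO/HlLtJ, and 2 called lower. Among all genes tested, 2.1% had risen in C57BL/6J, 0.783% in NZO/HlLtJ, and 1.13% were called lower. The 8 became 1 without replicate 1 or 3 on 10% fat or replicate 2 or 4 on 44% fat of C57BL/6J, 2 to 4 without replicate 2 or 4 on 10% fat or replicate 1 on 44% fat, and 16 without replicate 3 on 44% fat. Cdk1 (ENSMUSG00000019942, chromosome 10, 69336635 to 69352938, GRCm38), the mitotic cyclin-dependent kinase, was at 1.14, 0.998, 0.826 and 1.18 CPM on 10% fat and at 2.78, 3.09, 1.72 and 4.25 CPM on 44% fat in C57BL/6J. Levels in NZO/HlLtJ were 7.07, 4.90, 5.76 and 9.85 CPM on 10% fat and 5.04, 6.98, 8.59 and 7.02 CPM on 44% fat. Groups overlapped in NZO/HlLtJ and not in C57BL/6J. Its interaction was log2 -1.51, SE 0.38, adjusted p = 0.0291, and that of Ube2c, a ubiquitin-conjugating enzyme of the anaphase-promoting complex, log2 -1.76, SE 0.45, adjusted p = 0.0327. No cell cycle gene was called without replicate 1 or 4 of NZO/HlLtJ on 44% fat, replicate 2 or 4 of C57BL/6J on 44% fat, replicate 3 of C57BL/6J on 10% fat or replicate 4 of NZO/HlLtJ on 10% fat, 1 was called without replicate 1 or 2 of C57BL/6J or replicate 1 of NZO/HlLtJ on 10% fat, and 6 and 12 were called without replicate 3 of C57BL/6J and of NZO/HlLtJ on 44% fat.

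**Figure D3:**
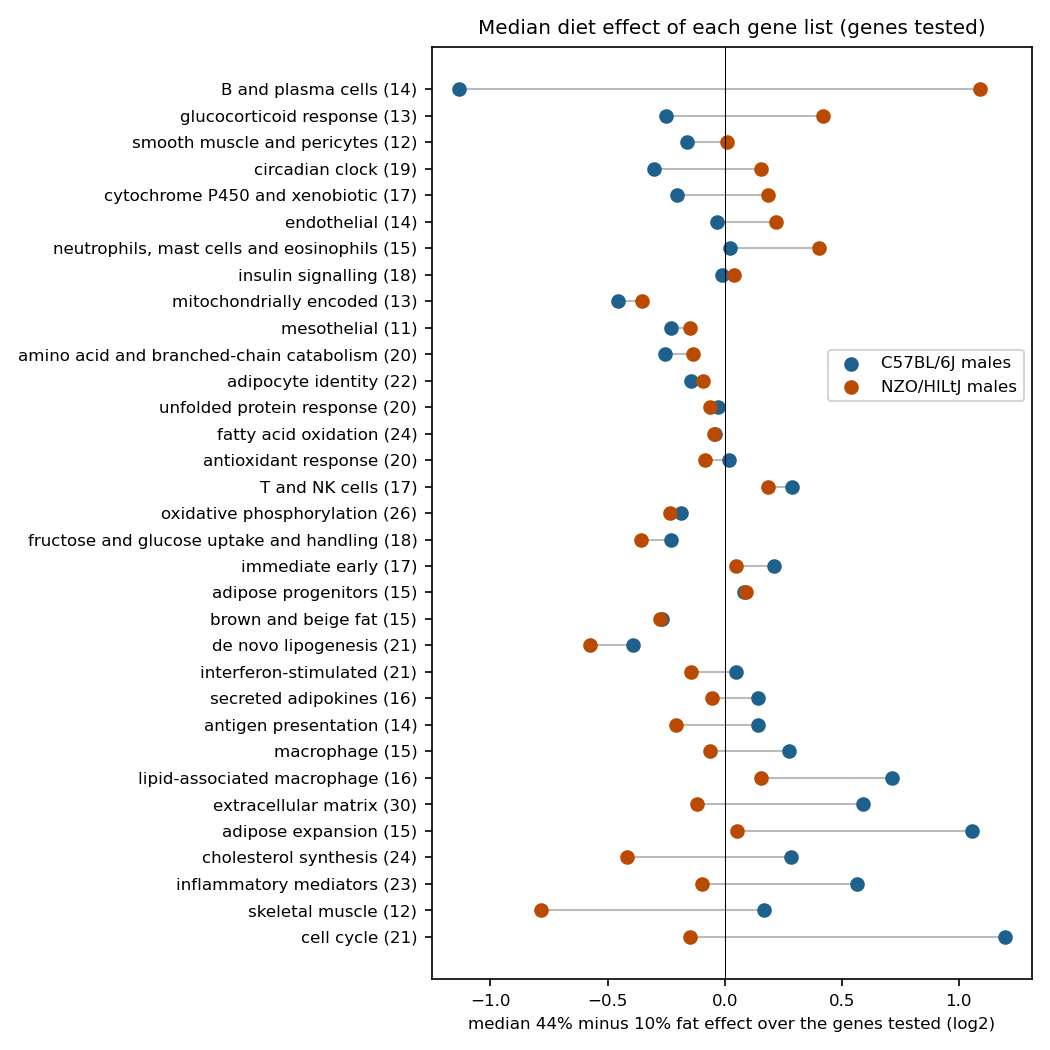
For each gene list with at least 10 genes tested (number in parentheses), points give the median log2 difference between 44% and 10% fat in C57BL/6J (blue) and NZO/HlLtJ (orange) males, ordered by the median interaction. Cell cycle, inflammatory, matrix and expansion lists lie to the right of 0 in C57BL/6J and near or left of 0 in NZO/HlLtJ. The B and plasma cell list at the top lies left of 0 in C57BL/6J and right of 0 in NZO/HlLtJ. Its highest summed level is in replicate 3 of NZO/HlLtJ on 44% fat.

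The genes with the most stable calls included several that in C57BL/6J rose from a low level to part of the NZO/HlLtJ level. Slc5a7 (ENSMUSG00000023945, chromosome 17, 54273594 to 54299034, GRCm38), the high-affinity choline transporter, was at 1.10, 2.39, 2.24 and 1.65 CPM on 10% fat and at 24.4, 46.0, 4.14 and 42.6 CPM on 44% fat in C57BL/6J. The NZO/HlLtJ libraries had 109, 82.2, 74.0 and 84.4 CPM on 10% fat and 63.7, 109, 107 and 98.7 CPM on 44% fat. The C57BL/6J groups did not overlap, the NZO/HlLtJ groups did, and all NZO/HlLtJ libraries stood above all of C57BL/6J. It rose 15.9-fold in C57BL/6J and differed by log2 0.12 in NZO/HlLtJ (adjusted p = 0.949), an interaction of log2 -3.87, SE 0.83, adjusted p = 0.0134. Paqr9 (ENSMUSG00000064225, chromosome 9, 95559657 to 95568023, GRCm38), a membrane protein of the progestin and adipoQ receptor family, was at 53.0, 51.4, 57 and 55.0 CPM on 10% fat and at 149, 191, 80.0 and 191 CPM on 44% fat in C57BL/6J. For NZO/HlLtJ the values were 271, 218, 259 and 244 CPM on 10% fat and 140.4, 305, 275 and 189 CPM on 44% fat. Its C57BL/6J groups did not overlap, and replicates 1 and 4 were the lowest NZO/HlLtJ libraries. The interaction was log2 -1.62, SE 0.29, adjusted p = 0.00573.

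S100b (ENSMUSG00000033208, chromosome 10, 76253853 to 76261159, GRCm38), a calcium-binding protein of glia and adipocytes, was at 0.583, 0.951, 0.560 and 0.392 CPM on 10% fat and at 2.92, 3.03, 0.841 and 2.76 CPM on 44% fat in C57BL/6J. Among NZO/HlLtJ males it stood at 8.04, 12.9, 13.9 and 13.0 CPM on 10% fat and at 4.51, 7.2, 7.59 and 7.83 CPM on 44% fat. The NZO/HlLtJ groups did not overlap, and replicate 3 of C57BL/6J on 44% fat stayed inside its 10% range. The diet effects were log2 1.89 in C57BL/6J (adjusted p = 0.00303) and -0.81 in NZO/HlLtJ (adjusted p = 0.109), and the interaction was log2 -2.71, SE 0.46, adjusted p = 0.0029. Slco3a1 (ENSMUSG00000025790, chromosome 7, 74275419 to 74554780, GRCm38), an organic anion transporter, was at 20.4, 17.0, 15.9 and 16.2 CPM on 10% fat and at 30.9, 36.8, 25.3 and 35.8 CPM on 44% fat in C57BL/6J. In NZO/HlLtJ it was at 15.9, 14.4, 14.3 and 14.6 CPM on 10% fat and at 11.6, 13.6, 13.7 and 11.9 CPM on 44% fat. Groups did not overlap in either strain, rising in C57BL/6J (adjusted p = 8.67e-05) and lying lower without a call in NZO/HlLtJ (adjusted p = 0.385). This gave an interaction of log2 -1.11, SE 0.18, adjusted p = 0.00194, and it was the only named gene still called with the 16 libraries alone.

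Further genes called lower in all 16 fits that left out 1 library had risen in C57BL/6J alone. Plppr4, a phospholipid phosphatase-related membrane protein, had an interaction of log2 -3.42, SE 0.65, adjusted p = 0.00622, and Atp1a4, a sodium pump subunit, of log2 -3.31, SE 0.64, adjusted p = 0.00628. F7, coagulation factor VII, was at 0.441 to 0.769 CPM in C57BL/6J on 10% fat and 0.904 to 7.94 on 44% fat, and its interaction was log2 -3.02, SE 0.57, adjusted p = 0.0059. Of those chosen after their values were seen, the receptor tyrosine kinase gene Ret was at 8.65 to 15.3 CPM in C57BL/6J on 10% fat and 15.3 to 46.3 on 44% fat, against 45.7 to 55.1 and 20.4 to 52.9 in NZO/HlLtJ (log2 -2.13, SE 0.42, adjusted p = 0.00666). The potassium channel gene Kcnh2 had log2 -2.31, SE 0.46, adjusted p = 0.00853, the glypican gene Gpc1 log2 -1.48, SE 0.29, adjusted p = 0.00622, and Serpinf1, which encodes pigment epithelium-derived factor, an adipocyte-secreted serpin, log2 -1.36, SE 0.26, adjusted p = 0.00622. In Ret, Kcnh2, Gpc1 and Serpinf1 replicate 3 was the lowest C57BL/6J library on 44% fat.

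In 5 genes the diet effect was called in both strains with opposite signs, a rise in C57BL/6J and a fall in NZO/HlLtJ. Most of these diet calls depended on single libraries. Over the 8 fits that left out 1 C57BL/6J library, Oxct1 kept its call in all. There Hist2h2aa1 lost it in 5, and Cfb, Aldh3b2 and Gm20634 in 7. In the 8 fits for NZO/HlLtJ the call was lost in 4 for Cfb, 5 for Oxct1 and Gm20634, and 6 for Aldh3b2 and Hist2h2aa1. Oxct1 (ENSMUSG00000022186, chromosome 15, 4026383 to 4155344, GRCm38), the rate-limiting enzyme of ketone body use, was at 272, 297, 264 and 277 CPM on 10% fat and at 408, 404, 309.8 and 409.9 CPM on 44% fat in C57BL/6J. Levels in NZO/HlLtJ were 310.0, 309.8, 268 and 282 CPM on 10% fat and 169, 246, 246 and 208 CPM on 44% fat. Groups did not overlap in either strain. The diet effects were log2 0.47 (adjusted p = 0.00536) and -0.43 (adjusted p = 0.0225), and the interaction was log2 -0.90, SE 0.14, adjusted p = 0.00177, the smallest adjusted p of the comparison. Cfb (ENSMUSG00000090231, chromosome 17, 34856374 to 34862518, GRCm38), complement factor B of the alternative pathway, was at 236, 204, 231 and 224 CPM on 10% fat and at 292, 365, 260.1 and 332 CPM on 44% fat in C57BL/6J. The NZO/HlLtJ libraries had 286, 217, 257 and 305 CPM on 10% fat and 149.7, 199.6, 214 and 158 CPM on 44% fat. Groups did not overlap in either strain, and the interaction was log2 -1.04, SE 0.19, adjusted p = 0.00573. Aldh3b2, an aldehyde dehydrogenase, had diet effects of 0.55 (adjusted p = 0.045) and -0.62 (adjusted p = 0.0489) and an interaction of log2 -1.17, SE 0.23, adjusted p = 0.00682.

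The other opposite pair was the histone gene Hist2h2aa1 (ENSMUSG00000064220, chromosome 3, 96245497 to 96246082, GRCm38; log2 -0.92, SE 0.17, adjusted p = 0.00573) and the processed transcript Gm20634 (ENSMUSG00000070392, chromosome 3, 96245554 to 96248509, GRCm38; log2 -1.56, SE 0.30, adjusted p = 0.00622). Their positions overlap and the strand used in counting is not given in the sources used here, so their reads cannot be told apart. Hist2h2aa1 also has a near-identical copy with which reads may be shared.

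Some of the called genes had changed in NZO/HlLtJ alone. Abcb9, a lysosomal peptide transporter, fell in NZO/HlLtJ (log2 -0.54, adjusted p = 0.0216) and was at 23.2, 21.1, 21.9 and 22.4 CPM on 10% fat and at 13.6, 18.1, 17.5 and 11.6 CPM on 44% fat there. The groups did not overlap, and the interaction was log2 -0.94, SE 0.17, adjusted p = 0.00573. S100pbp rose in NZO/HlLtJ (log2 0.42, adjusted p = 0.0207; interaction log2 0.68, SE 0.13, adjusted p = 0.00573). Cd209a and Cd209d, genes of C-type lectins on chromosome 8, known from dendritic cells and macrophages, chosen after their values were seen, fell in NZO/HlLtJ. Cd209a was at 3.38, 2.93, 1.95 and 2.28 CPM on 10% fat and at 0.794, 1.29, 1.41 and 0.592 CPM on 44% fat in NZO/HlLtJ, where the groups did not overlap, and at 6.61 to 10.8 and 8.66 to 14.5 CPM in C57BL/6J. The value of the interaction was log2 -1.72, SE 0.35, adjusted p = 0.00964 and that of Cd209d log2 -1.84, SE 0.40, adjusted p = 0.0134. Cd209a and Cd209d belong to a family of similar sequences, and how reads shared between members were counted is not given in the sources used here. Over the 8 fits that left out 1 NZO/HlLtJ library, the diet call was lost in 4 for Abcb9, 4 for S100pbp, 2 for Cd209a and 1 for Cd209d.

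Of 24 cholesterol synthesis genes, 3 were called lower (median -0.77), against 1.13% of all genes tested. Ebp, a sterol isomerase, was at 33.0, 33.7, 33.9 and 32.3 CPM on 10% fat and at 35.5, 39.3, 34.7 and 38.3 CPM on 44% fat in C57BL/6J. For NZO/HlLtJ the values were 38.0, 36.1, 35.4 and 41.3 CPM on 10% fat and 24.3, 31.6, 33.1 and 26.6 CPM on 44% fat, so the diet groups overlapped in neither strain, higher on 44% fat in C57BL/6J and lower in NZO/HlLtJ, and its interaction was log2 -0.54, SE 0.13, adjusted p = 0.021. Hmgcs1, the synthase of the early pathway, had log2 -1.05, SE 0.29, adjusted p = 0.0448. No gene of this list was called without replicate 1 or 4 of NZO/HlLtJ on 44% fat, replicate 2 or 4 of C57BL/6J on 44% fat, or replicate 4 of NZO/HlLtJ on 10% fat, and 1 cholesterol gene was called without replicate 1 or 3 of C57BL/6J on 10% fat, replicate 1 of C57BL/6J on 44% fat, or replicate 1 or 2 of NZO/HlLtJ on 10% fat. Other members of lists were called lower. The glycolytic enzyme Pfkp had log2 -0.76, SE 0.19, adjusted p = 0.0258, the insulin receptor adaptor Grb14 log2 -1.63, SE 0.38, adjusted p = 0.0202, and the adipokine genes Sfrp4 and Rarres2 (chemerin) -1.70 and -0.58 (adjusted p = 0.0291 and 0.0499). Of 20 antioxidant genes, the superoxide dismutases Sod2 (-0.60) and Sod3 (-0.78) were lower and the glutathione peroxidase Gpx3 (1.57) higher. Over all genes tested, 1.13% were called lower and 1% higher. Cd55, a complement regulator and progenitor marker, was 1 of 15 progenitor genes and had log2 -1.03, SE 0.23, adjusted p = 0.0154.

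Among genes called higher, Hsd11b1 (ENSMUSG00000016194, chromosome 1, 193221634 to 193264075, GRCm38), the enzyme that regenerates active glucocorticoid in fat, was at 245, 355, 324 and 260.2 CPM on 10% fat and at 73.1, 59.1, 130.2 and 60.7 CPM on 44% fat in C57BL/6J. Among NZO/HlLtJ males it stood at 47.9, 77.7, 40.0 and 48.9 CPM on 10% fat and at 47.2, 31.7, 41.1 and 45.5 CPM on 44% fat. The C57BL/6J groups did not overlap and the NZO/HlLtJ groups did, and on either diet all NZO/HlLtJ libraries lay below the C57BL/6J libraries on that diet. It fell 3.66-fold in C57BL/6J (adjusted p = 9.73e-06), and its interaction was log2 1.5, SE 0.32, adjusted p = 0.0114, called in every fit that left out 1 library. It was the 1 called gene of 13 in the glucocorticoid response list (median 0.67). Of all genes tested 1% were called higher, and their median interaction was 0.00296. Cyp4b1 (ENSMUSG00000028713, chromosome 4, 115624725 to 115647723, GRCm38), a fatty acid and xenobiotic hydroxylase, was at 89.7, 82.1, 69.2 and 64.0 CPM on 10% fat and at 68.4, 65.1, 68.9 and 67.5 CPM on 44% fat in C57BL/6J. In NZO/HlLtJ it was at 64.2, 53.5, 76.2 and 87.4 CPM on 10% fat and at 193, 92.7, 95.7 and 143 CPM on 44% fat. Here the change was in NZO/HlLtJ, whose groups did not overlap, with replicates 1 and 4 highest. It rose 1.86-fold in NZO/HlLtJ (adjusted p = 0.0112), with an interaction of log2 1.08, SE 0.24, adjusted p = 0.0146.

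Inmt (ENSMUSG00000003477, chromosome 6, 55170626 to 55175043, GRCm38), an N-methyltransferase of tryptamine and other amines, was at 55.8, 28.4, 52.5 and 65.6 CPM on 10% fat and at 20, 16.9, 62.6 and 11.8 CPM on 44% fat in C57BL/6J. Levels in NZO/HlLtJ were 1.21, 2.33, 2.47 and 1.31 CPM on 10% fat and 39.3, 3.47, 2.95 and 20.7 CPM on 44% fat. All 4 NZO/HlLtJ libraries on 44% fat exceeded the 10% group, by far in replicates 1 and 4, while replicate 3 of C57BL/6J on 44% fat kept a 10% level. The interaction came to log2 4.03, SE 0.94, adjusted p = 0.0204, and it was not called in 3 of the fits that left out 1 library. Chrdl1, an antagonist of bone morphogenetic proteins, was at 90.4, 53.1, 81.3 and 71.1 CPM on 10% fat and at 177, 78.2, 76.3 and 224 CPM on 44% fat in NZO/HlLtJ, again high in replicates 1 and 4 (log2 1.71, SE 0.41, adjusted p = 0.0244). The same held for Acot4, an acyl-CoA thioesterase, at 1.61, 1.35, 1.62 and 1.38 CPM on 10% fat and at 4.02, 1.58, 1.95 and 3.5 CPM on 44% fat (log2 1.60, SE 0.40, adjusted p = 0.0267), and for Wwc1, a scaffold of the Hippo pathway (log2 1.82, SE 0.49, adjusted p = 0.0403). Gpx3 fell short of a call for diet in either strain (adjusted p = 0.0566 in C57BL/6J) and had an interaction of log2 1.57, SE 0.42, adjusted p = 0.0389. Nr1d2, which encodes the clock repressor REV-ERB beta, had log2 1.22, SE 0.34, adjusted p = 0.0461. Of genes chosen after their values were seen, Cyp2d22, a cytochrome P450, fell in C57BL/6J and had an interaction of log2 1.37, SE 0.25, adjusted p = 0.00573. Pdk1, an inhibitor of pyruvate dehydrogenase, also fell in C57BL/6J (log2 1.17, SE 0.24, adjusted p = 0.00853). Both were called in every fit that left out 1 library.

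**Figure D4:**
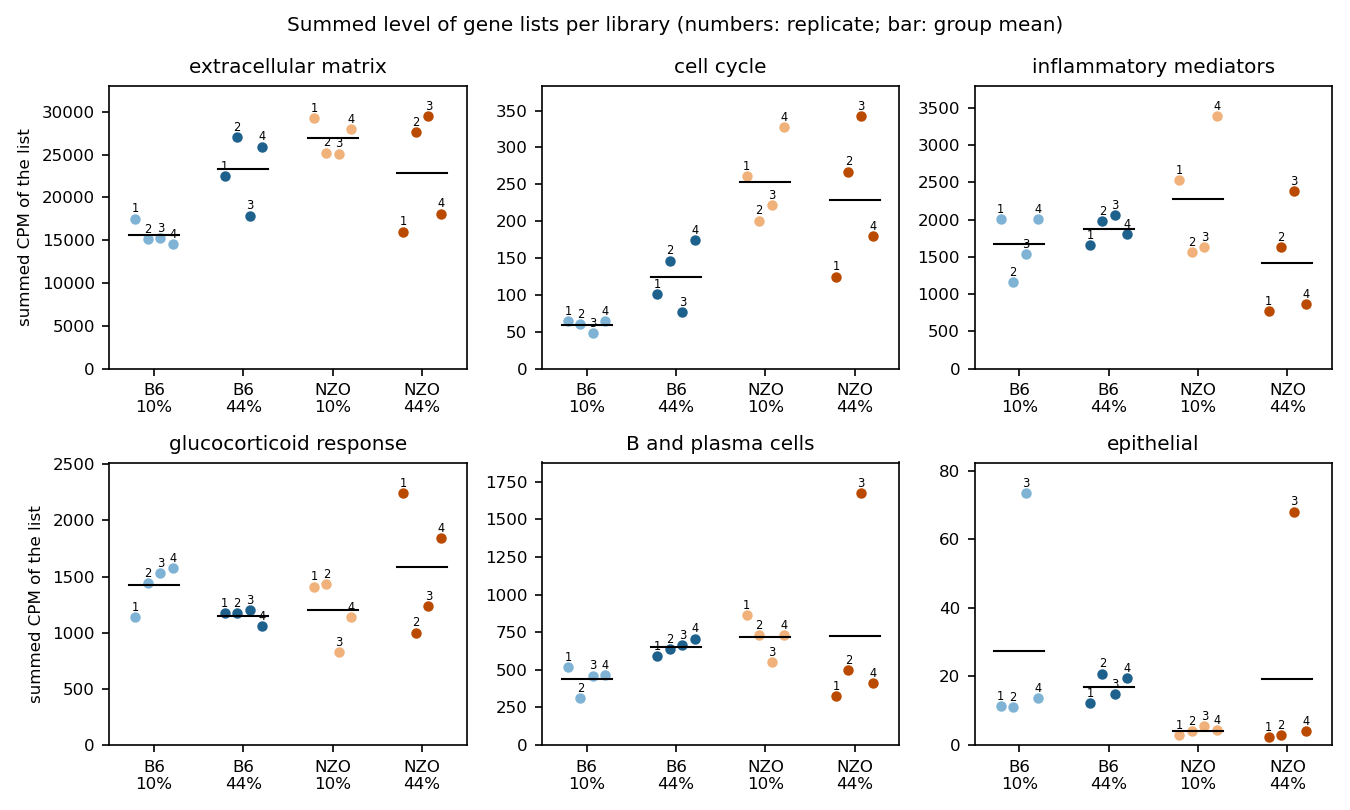
Points are the summed CPM of all members of a list in each library on a linear axis from 0, with replicate numbers and the group mean as a bar, for males of C57BL/6J (B6) and NZO/HlLtJ (NZO). Replicates 1 and 4 of NZO/HlLtJ on 44% fat are lowest of their group for matrix, cell cycle and inflammatory genes and highest for the glucocorticoid response list, while the B and plasma cell and epithelial sums are high in 1 library of a group.

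Some calls rested on replicate 3 of C57BL/6J on 10% fat, the library with epithelial genes at 73.6 CPM. Without it 337 genes were called, 291 of them among the 401. Elf5, a transcription factor of mammary and other epithelia, was at 0, 0.0232, 28.7 and 0 CPM in C57BL/6J on 10% fat and listed at 0 in all 4 libraries on 44% fat. Its call (adjusted p = 0.0129) was lost (adjusted p = 0.49) without that library. That library was also highest in its group for Gata2, a transcription factor of progenitor and blood cells, at 15.2, 11.2, 63.3 and 10.9 CPM, and its interaction of log2 1.68, SE 0.45, adjusted p = 0.0403 became 0.67 (adjusted p = 0.18) without it. The epithelial membrane protein gene Prom1 was at 2.28, 12.8, 26.1 and 2.09 CPM in that group, and its interaction of log2 2.49, SE 0.59, adjusted p = 0.0222 became 1.58 (adjusted p = 0.0784). For Tmc4, at 3.38, 3.85, 12.8 and 3.24 CPM, it went from log2 2.16, SE 0.50, adjusted p = 0.0198 to 1.42 (adjusted p = 0.0603). For Mlph, a melanophilin of vesicle transport, at 4.45, 8.75, 19.5 and 2.27 CPM, it went from log2 1.92, SE 0.49, adjusted p = 0.0299 to 1.16 (adjusted p = 0.0939). Cadps2, of vesicle exocytosis, was at 7.88, 9.72, 11.6 and 8.28 CPM on 10% fat and at 3.01, 2.10, 4.81 and 2.21 CPM on 44% fat in C57BL/6J, where the groups did not overlap. Its interaction of log2 1.82, SE 0.50, adjusted p = 0.0425 was nearly as large without that library, at 1.71 (adjusted p = 0.0644), though no longer called. Without this library and replicate 3 of NZO/HlLtJ on 44% fat, 1421 genes were called, among them 382 of the 400 of these genes still tested.

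In NZO/HlLtJ on 44% fat, replicate 3 stood far above the other libraries for 2 blood cell genes. Elane, the neutrophil elastase, was at 0.397, 0, 10.5 and 0.161 CPM there (log2 4.98, SE 1.14, adjusted p = 0.018), and Cr2, a complement receptor of B cells, at 0.142, 0.245, 1.39 and 0.215 (log2 3.37, SE 0.79, adjusted p = 0.021). Both calls were lost without that library (adjusted p = 0.406 and 0.0632) and without replicate 2 of C57BL/6J on 44% fat (0.0512 and 0.0619). B and plasma cell genes had a median interaction of 2.38 over 14 genes, with 1 called higher, against 1% of all genes tested. Their median diet effect was -1.13 in C57BL/6J, where 11 of the 14 lay below 0, and 1.09 in NZO/HlLtJ. The summed level of that list was 326, 496, 1676 and 411 CPM in NZO/HlLtJ on 44% fat. Rnase2a (ENSMUSG00000047222, chromosome 14, 51255266 to 51256112, GRCm38), a ribonuclease of the eosinophil family, was at 0.0466, 0.0928, 0.187 and 0.340 CPM on 10% fat and at 2.52, 7.82, 0.189 and 7.97 CPM on 44% fat in C57BL/6J. The NZO/HlLtJ libraries had 3.05, 6.95, 2.65 and 2.26 CPM on 10% fat and 2.98, 3, 2.10 and 1.75 CPM on 44% fat. In C57BL/6J replicate 3 on 44% fat stayed at the 10% level and the other 3 lay above it, and in NZO/HlLtJ the groups overlapped. Its interaction was log2 -5.40, SE 0.90, adjusted p = 0.0029, called in every fit that left out 1 library. The C57BL/6J levels on 10% fat rest on few counts, and reads may be shared with related ribonuclease genes.

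Adipocyte identity and lipid synthesis showed no call for the interaction. None of 22 adipocyte identity genes was called (median 0.03). Adipoq, the adiponectin gene, was at 2971 to 3372 and 2303 to 2678 CPM in C57BL/6J and at 1174 to 1444 and 927 to 1583 in NZO/HlLtJ (log2 0.24, adjusted p = 0.455), and Pparg, the master regulator of adipocytes, had 0.05 (adjusted p = 0.94). Cfd (adipsin) fell in C57BL/6J (adjusted p = 0.0303) with an interaction of 0.63 (adjusted p = 0.466). None of 21 lipogenic genes was called (median -0.21). The median diet effect was -0.39 in C57BL/6J, with Acaca and Tkt called lower, and -0.58 in NZO/HlLtJ, with Elovl6 and Thrsp called lower. Of all genes tested, 1.69% and 0.378% were called lower for diet in these strains. With 1 library of the strain left out, 0 to 3 lipogenic genes were called lower in C57BL/6J. In NZO/HlLtJ 0 to 4 were called lower and at most 1 higher. Over the 8 such fits of each strain the call was lost in 5 for Acaca, 5 for Elovl6 and 3 for Thrsp. Fasn, the fatty acid synthase gene, was at 8069, 17783, 16282 and 10130.0 CPM on 10% fat and at 7279, 8579.7, 6802 and 7938 CPM on 44% fat in C57BL/6J. For NZO/HlLtJ the values were 4927, 14392, 5108 and 4741 CPM on 10% fat and 1971, 3895, 3928 and 2345 CPM on 44% fat. Replicate 2 of NZO/HlLtJ on 10% fat was the highest of its group for Fasn, Acaca, Elovl6 and Thrsp. The interaction of Fasn was log2 -0.49 (adjusted p = 0.632), of Acaca, which encodes acetyl-CoA carboxylase, 0.18 (adjusted p = 0.872), of Elovl6 -0.58 (adjusted p = 0.688), of Thrsp -1.45 (adjusted p = 0.181), and of the desaturase gene Scd1 0.57 (adjusted p = 0.293). These p-values do not show that the strains responded alike.

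Slc2a5, the fructose transporter, and Nmnat3, an enzyme of mitochondrial NAD synthesis, were the 2 genes called for diet with the same sign in both strains. Slc2a5 was at 1.17, 2.71, 3.49 and 1.80 CPM on 10% fat and at 0.116, 0.0309, 0.0841 and 0.184 CPM on 44% fat in C57BL/6J. Among NZO/HlLtJ males it stood at 0.664, 7.18, 0.705 and 0.784 CPM on 10% fat and at 0.142, 0.133, 0.439 and 0.0807 CPM on 44% fat. Replicate 2 on 10% fat stood far above the other NZO/HlLtJ libraries. Slc2a5 fell 20.8-fold in C57BL/6J (adjusted p = 0.0144), a call lost without replicate 2 or 4 on 44% fat (adjusted p = 0.0672 and 0.0616). In NZO/HlLtJ the fall was 11.4-fold (adjusted p = 0.0493), but 3.52-fold and not called without replicate 2 on 10% fat (adjusted p = 0.404), and the call was lost in 6 of the 8 fits that left out 1 NZO/HlLtJ library. The value of the interaction was log2 0.87 with an SE of 1.61. Nmnat3 fell by 0.69 in C57BL/6J and 0.94 in NZO/HlLtJ on the log2 scale, calls lost in 6 and 2 of the 8 such fits of each strain. Of the remaining genes of the fat biology panel, none was called for the interaction: Npr3 -0.96, Slc2a4 0.01, Srebf1 -0.25, Irs1 0.31, Irs2 0.39, Adrb3 0.39, Cyp2e1 -0.96, Adgre1 -0.26 and Saa3 -0.88 on the log2 scale, with adjusted p-values from 0.345 to 0.997. Cyp2e1, an ethanol- and fatty acid-oxidizing P450, fell in NZO/HlLtJ (adjusted p = 0.0384). Ucp1, the uncoupling protein of brown fat, was at 63.3 to 144 CPM in NZO/HlLtJ on 10% fat and 45.4 to 125 on 44% fat and at most at 0.0696 CPM in C57BL/6J males, which leaves no usable interaction.

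No member was called in lists of fatty acid oxidation, oxidative phosphorylation, brown and beige fat, T and NK cells, endothelial cells, smooth muscle and pericytes, mesothelium, skeletal muscle, epididymis with testis and seminal tract, pancreas acinar cells, erythrocytes, the unfolded protein response, interferon-stimulated genes, antigen presentation, immediate early genes, branched-chain and other amino acid catabolism and mitochondrially encoded genes. Their medians ran from -1.01 for pancreas acinar cells, with 1 gene tested, to 0.76 for epididymis with testis and seminal tract, with 3. The circadian list held 1 call of 19 (Nr1d2), the P450 list 1 of 17 (Cyp4b1), the list of neutrophils, mast cells and eosinophils 2 of 15 (Elane higher, Rnase2a lower) and the epithelial list 1 of 7 (Elf5). Among all genes tested 2.14% were called.

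The same contrast was computed in 16 female libraries, which are separate from the male ones. It called 1766 genes in females (9.41%), 852 higher (4.54%) and 914 lower (4.87%), 48.2% of them higher (63.5% when scaled by library totals). Of the 401 male calls, 285 (71.1%) had the same sign in females, against 54.9% of all genes tested, 65 (16.2%) were called there too, and 59 of those 65 had the same sign. The 65 were 3.68% of the female calls. The difference between the sexes was tested directly and was called for 703 genes (3.75%), 37.3% of them higher in males (26.2% when scaled by library totals), 58 of them among the 401. Across all genes tested the male and female interactions had a Pearson r of 0.0778, given as a description since genes are not independent. The 2 sexes shared the direction for Rnase2a (log2 -6.26 in females, adjusted p = 0.0009), Ret (-1.80, adjusted p = 0.0047), Oxct1 (-0.73, adjusted p = 0.000776), Slco3a1 (-0.70, adjusted p = 0.011) and Cd209d (-2.12, adjusted p = 0.000539), all called in females. Slc5a7 had -2.86 in females without a call (adjusted p = 0.132).

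The chemokine genes differed between the sexes. Ccl2 was in C57BL/6J females at 1.17, 1.18, 0.633 and 1.09 CPM on 10% fat and at 1.76, 1.62, 2.12 and 1.57 CPM on 44% fat. In NZO/HlLtJ females it was at 6.73, 4.76, 3.63 and 6.88 CPM on 10% fat and at 31.4, 35.5, 27.9 and 24.5 CPM on 44% fat. The NZO/HlLtJ female groups did not overlap and were higher on 44% fat. The female interaction was log2 1.66, SE 0.63, adjusted p = 0.0881, and the male minus female difference was log2 -4.76, SE 0.85, adjusted p = 0.00267. The difference was also called for Ccl7 (log2 -4.17, SE 0.89, adjusted p = 0.00869), Ccl8 (log2 -3.87, SE 0.71, adjusted p = 0.00317), Il1rn (log2 -3.32, SE 0.91, adjusted p = 0.0319) and Ptx3 (log2 -5.18, SE 0.93, adjusted p = 0.00267). Ptx3 was called in females in the positive direction (log2 2.28, SE 0.67, adjusted p = 0.0261). So were Cdk1 (log2 1.76, SE 0.38, adjusted p = 0.0026) and Col12a1 (log2 1.44, SE 0.46, adjusted p = 0.0404), for which the sex difference was -3.26 (adjusted p = 0.00241) and -3.41 (adjusted p = 0.00405). By list, the sex difference was called lower in males for 14 of 21 cell cycle genes, 8 of 15 macrophage genes, 6 of 23 inflammatory mediators and 5 of 30 matrix genes, and higher in males for 5 of 22 adipocyte identity genes and none of those other lists, against 2.35% and 1.4% of all genes in these directions. With 1 of the 32 libraries left out these counts were 9 to 20, 5 to 11, 3 to 9, 4 to 9 and 2 to 7. They fell to 9, 5 and 3 for cell cycle, macrophage and inflammatory genes without replicate 4 of NZO/HlLtJ males, on 10% fat for the cell cycle and macrophage lists and on 44% fat for the inflammatory list, and the cell cycle count was also 9 without replicate 4 of C57BL/6J males on 44% fat. In females the matrix list held 7 genes called higher and none lower, 3 to 7 higher and at most 2 lower with 1 library left out. Skeletal muscle genes moved in the same contrast. Of 12, 9 were called higher in females, with a median of 5.49, and the sex difference had a median of -5.89, with 3 of the 12 called lower in males. Their summed level was 82.6, 30.2, 463 and 12.3 CPM in C57BL/6J females on 10% fat, against 16.3 to 79.1 CPM in the other 12 female libraries and 8.96 to 75.1 CPM in the males. Without replicate 3 of C57BL/6J females on 10% fat, 2 muscle genes were called in females and 1 for the sex difference, with medians of 3.35 and -3.92. Without it the sex difference was called for 521 genes, lower in males for 12 cell cycle, 8 macrophage, 6 inflammatory and 4 matrix genes and higher for 3 adipocyte identity genes.

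**Figure D5:**
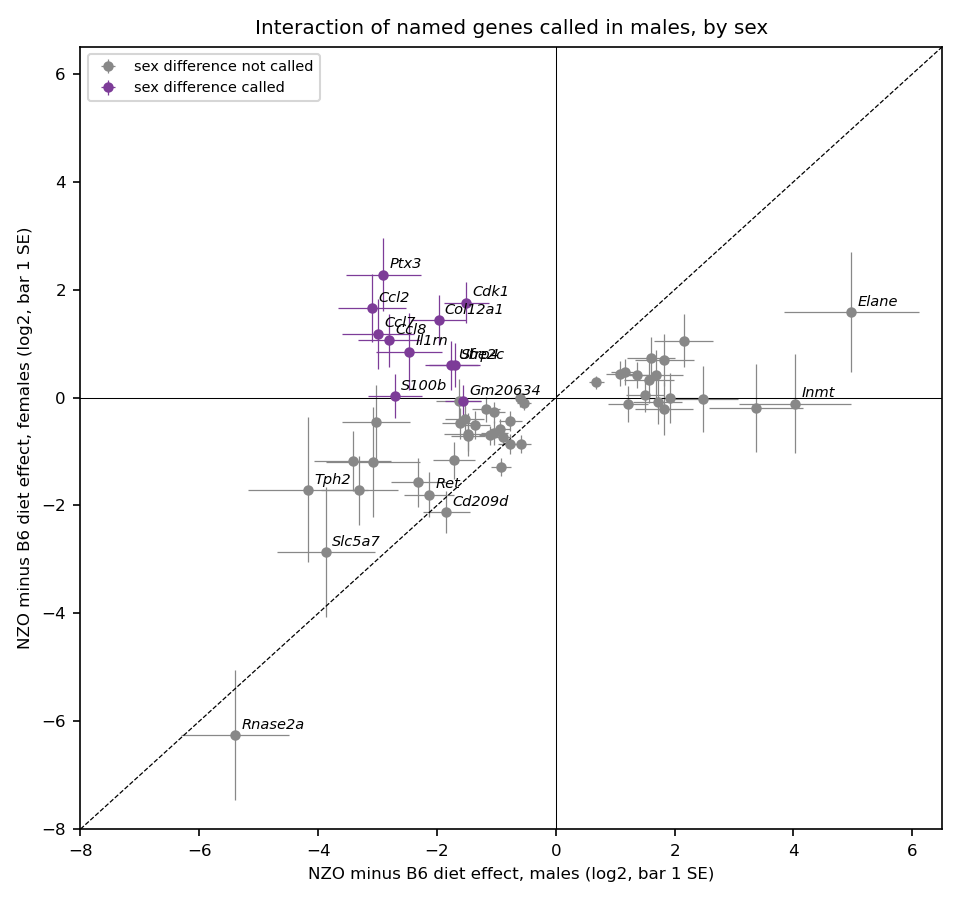
Points are 58 of the 59 named genes called in males, with the interaction in males on the x axis and in females on the y axis in log2 units and bars of 1 SE; Elf5, beyond the axis, is left out. Points on the dashed line are equal in both sexes, Rnase2a and Slc5a7 lie near it, and the 11 genes with a called sex difference, among them Ccl2, Ccl7, Ccl8 and Ptx3, lie above it.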

How the data were processed

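The values are polyA RNA-seq of mouse gonadal fat pads from libraries made with the KAPA mRNA HyperPrep kit, per the labels' protocols. The authors deposited estimated counts per gene, of which 21.5% are not whole numbers (tolerance 1e-06), for 22376 genes in 47 libraries, and gene positions on GRCm38, per the submitters' processing notes. The sources used here do not give the aligner, the counting tool or the use of strand. A second deposited table of log2 values, variance-stabilized by the authors, was not used.

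Counts were rounded, scaled by TMM and fitted with edgeR 4.0.16 (R 4.3.3) by quasi-likelihood F tests over all 47 libraries in 12 groups, with 35 residual degrees of freedom. The filter on low counts (minimum count 10) kept 18769 genes (83.9%). CPM use TMM-scaled library sizes. P-values were adjusted by Benjamini-Hochberg over all genes tested and called below 0.05. Group medians of lists are described beside all genes, with no set test. The script was tested on simulated data.

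Alternatives were library totals, DESeq2's size factors, no filter, edgeR's robust option, the number range as a term or range 77 alone, the 16 libraries alone, DESeq2 1.42.0 and each library left out. The 23 males, limma voom 3.58.1 with group weights, and leaving out the libraries with epithelial markers were chosen after seeing the data.

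Named genes were the 10 largest and 10 smallest called interactions among protein-coding genes (mean log2 CPM 1 or more), a panel of fat genes, up to 3 called members per list, 2 per class of diet effect, and the 3 largest and smallest sex differences. This names 75 genes, and 16 more were chosen after their values were seen. One named gene of the cholesterol list is not reported here. The comparison, lists and panel were chosen with earlier results of these data known.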

Additional observations from a re-analysis of the deposited data

Results flagged for a closer look

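In the male groups of 4 libraries, Dixon's test of a single far value marked the following CPM values of named genes called for the interaction. Named genes that were not called, among them Slc2a5, Fasn and Mest, are not covered by this list, and some of them also hold single far values. The named and called genes number 59, with 4 male groups each, and chance alone marks about 1 in 20 such groups. The marked values point to single libraries and are not read as more than chance would mark. The high value of Inmt (62.6 CPM) and the low value of S100b (0.841 CPM) and Oxct1 (309.8 CPM) came from replicate 3 of C57BL/6J on 44% fat. The highest value of Prom1 (5.35 CPM) came from replicate 2 of C57BL/6J on 44% fat. The high value of Tmc4 (12.8 CPM), Gata2 (63.3 CPM) and Elf5 (28.7 CPM) came from replicate 3 of C57BL/6J on 10% fat. The low value of F7 (0.441 CPM) and Gm20634 (21.1 CPM) came from replicate 2 of C57BL/6J on 10% fat. The high value of Cr2 (1.39 CPM) and Elane (10.5 CPM) came from replicate 3 of NZO/HlLtJ on 44% fat. The high value of Rnase2a (6.95 CPM) came from replicate 2 of NZO/HlLtJ on 10% fat. The highest value of Ube2c (12.3 CPM) came from replicate 4 of NZO/HlLtJ on 10% fat. The high value of Slco3a1 (15.9 CPM) came from replicate 1 of NZO/HlLtJ on 10% fat.

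The interaction differed between males and females by the direct test, as male minus female on the log2 scale, for the named genes below. Values below 0 were found for Rgs1 (-5.31), Ptx3 (-5.18), Ccl2 (-4.76), Ccl7 (-4.17), Ccl8 (-3.87), Col12a1 (-3.41) and Il1rn (-3.32). Smaller ones of the same sign were found for Cdk1 (-3.26), S100b (-2.73), Ube2c (-2.36), Sfrp4 (-2.30), Adgre1 (-1.65) and Gm20634 (-1.49). Values above 0 were found for Cxcl13 (6.18), Nnat (3.5), Mmp9 (3.47), Adrb3 (2.14), Adipoq (1.53) and Irs1 (1.22). Of these, Adipoq, Irs1, Adrb3, Adgre1, Rgs1, Cxcl13, Nnat and Mmp9 were not called in males. Cxcl13, a B cell chemokine, was at 2.04, 3.60, 37.4 and 1.26 CPM in NZO/HlLtJ males on 44% fat, high in the library that also held B cell and epithelial genes. Nnat, an imprinted proteolipid gene, was at 1205, 354, 306 and 1002 CPM in the same group. Rgs1, a regulator of G protein signalling in leukocytes, had log2 -2.15, SE 0.71, adjusted p = 0.0828 in males. The part of the libraries that stand apart in these differences was not tested.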

How the results depend on the processing

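No paired analysis was possible because the labels give no replicate numbers. The number range in the titles, whose meaning is not given, was fitted as a term instead and left the interaction called for 383 genes, 336 of them among the 401. The interaction was called for 3 genes with number range 77 alone, 3 with the 16 libraries alone, 19 with the 23 males, 245 with voom, 924 with DESeq2 and 1421 without the libraries with epithelial markers, and for 60 to 1448 with 1 library left out. Calls fell to 60, 76, 85, 119, 155, 211, 233, 236 and 237 without replicate 1 of NZO/HlLtJ on 44% fat, replicates 2 and 4 of C57BL/6J on 44%, replicate 4 of NZO/HlLtJ on 44%, replicates 4 and 1 of NZO/HlLtJ on 10%, replicate 1 of C57BL/6J on 10% and on 44%, and replicate 2 of C57BL/6J on 10%. They rose to 718 and 1448 without replicates 2 and 3 of NZO/HlLtJ on 44%, and to 1202 without replicate 3 of C57BL/6J on 44%. All of the 401 genes that a fit tested kept their sign in it.

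The diet effect in NZO/HlLtJ was called for 140 genes with library totals, 144 with no filter, 99 with the range term, 0 in range 77, 2 with the 16 libraries, 0 with the 23 males, 34 with voom, 483 with DESeq2, 872 without the libraries with epithelial markers, and 15 to 859 with 1 library left out. For C57BL/6J these were 0 in range 77, 289 with the 16 libraries, 224 with the 23 males, 1098 with DESeq2, 399 without the libraries with epithelial markers, and 104 to 1529. Range 77 gave 1707 and 1006 strain differences on 10% and 44% fat, and leaving out 1 library 7326 to 7959 and 5256 to 5997. In females the interaction was called for 0 genes in range 77 and 1174 to 2089 with 1 library left out. The sex difference was called for 0 in range 77, 1282 without the libraries with epithelial markers, and 344 to 1304. Where no gene was called by edgeR, an unadjusted p below 0.05 was found for 1798 and 984 genes (diet in NZO/HlLtJ and C57BL/6J), 2601 (females) and 868 (sex difference) in range 77, and for 2742 (diet in NZO/HlLtJ) with the 23 males. Apart from the smaller number of libraries in some fits, the cause was not tested.

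Interactions of genes that were not called turned their sign in some fits, on the log2 scale. In range 77 alone these were Pparg (-0.80), Slc2a4 (-0.45), Slc2a5 (-1.50), Acaca (-0.58), Ucp1 (0.80), Adgre1 (0.66), Itgax (0.40), Trem2 (1.03) and Ccl11 (0.31), and without the libraries with epithelial markers Slc2a5 (-0.15) and Ucp1 (0.035). With 1 library left out, values ranged for Pparg from -0.11 to 0.20, Slc2a4 from -0.093 to 0.23, Fasn from -0.68 to 0.074, Elovl6 from -0.92 to 0.33, Adrb3 from -0.074 to 0.66 and Ucp1 from -0.40 to 0.42. Depth limits genes near or under 1 CPM, such as Elf5, Cr2, Slc2a5 on 44% fat and Ucp1 in C57BL/6J.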
